A study of Mus musculus with 22 samples.

Results

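The Myc family and its partners are the genes of the MYC, MAX and MXD network of basic helix-loop-helix leucine zipper proteins. Its members were taken by symbol from the expression table: Myc, Mycn, Mycl, Max, Mga, Mxd1, Mxd3, Mxd4, Mxi1 and Mnt. All 10 symbols were found among the 18487 genes of the table, and all 10 passed the filter on low values that left 17275 genes for testing. No member was at 0 in any library.

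RNA-seq was performed on E14 mouse embryonic stem cells (ESCs), an established ESC line, in 22 libraries that form 11 groups of 2. Each of 10 groups carries the name of 1 compound: Bromosporine, Chaetocin, CPTH2, DZNep, Garcinol, IOX1, MS023, OICR, UNC0379 or Valproate. NC is the group with no compound named, and every comparison below is against the same 2 NC libraries. The labels give neither dose nor time nor vehicle, so the compounds are compared at unknown exposures, and nothing in them says that the 2 libraries of a group came from separate cultures. As background, Bromosporine blocks bromodomains, Chaetocin and UNC0379 inhibit histone lysine methyltransferases, CPTH2 and Garcinol inhibit histone acetyltransferases, and DZNep blocks S-adenosylhomocysteine hydrolase, on which many methyltransferases depend. IOX1 inhibits oxoglutarate-dependent oxygenases such as the histone demethylases, MS023 inhibits protein arginine methyltransferases, and Valproate inhibits histone deacetylases. For OICR the labels give no fuller name.

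MYC, MYCN and MYCL bind DNA as dimers with MAX, at E-box sequences, and activate genes for ribosome production, metabolism and cell growth. The MXD proteins, MXI1 and MNT compete for MAX and recruit SIN3 and histone deacetylases to repress the same sites, while MGA joins MAX to a variant Polycomb complex. In ESCs, MYC proteins support self-renewal downstream of LIF, Mycn can stand in for Myc, and the loss of Max or Mga releases germ-line genes.

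The letters of the E-box that MAX dimers prefer, CACGTG, were sought in the 250 bases before each RefSeq transcription start (build GRCm38.p6), with 3 other motif sets read on both strands. Myc has no entry in the table used. Of the 9 members with an entry, Mxd4 and Mnt held CACGTG, a share of 22.2%, against 9.46% of the 11823 tested genes with an entry and 20% of 50 listed genes that MYC is known to raise. The 2 promoters are printed because Mxd4 and Mnt were also, besides Myc, the members with a Benjamini-Hochberg adjusted limma p under 0.05 with DZNep. They changed in opposite directions, and Mnt by less than 2-fold. This choice was made after the results were seen, and a link between motif and change was not tested. The Mycn promoter is printed because Mycn was the most abundant member per length and the 1 member with either E2F-type motif, TTTGGCGC or TTTCGCGC. The capitals mark these motifs. Each sequence runs 5′ to 3′ on the strand of its gene and leaves out the bases nearest the start that lie inside the GENCODE gene. The positions are chr5:34187721-34187960 (minus strand) for Mxd4, chr11:74830674-74830919 (plus strand) for Mnt and chr12:12941915-12942086 (minus strand) for Mycn.
Mxd4: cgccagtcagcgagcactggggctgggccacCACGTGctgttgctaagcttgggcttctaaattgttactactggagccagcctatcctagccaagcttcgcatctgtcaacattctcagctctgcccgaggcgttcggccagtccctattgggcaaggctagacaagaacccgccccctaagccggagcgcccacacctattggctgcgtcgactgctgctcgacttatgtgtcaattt
Mnt: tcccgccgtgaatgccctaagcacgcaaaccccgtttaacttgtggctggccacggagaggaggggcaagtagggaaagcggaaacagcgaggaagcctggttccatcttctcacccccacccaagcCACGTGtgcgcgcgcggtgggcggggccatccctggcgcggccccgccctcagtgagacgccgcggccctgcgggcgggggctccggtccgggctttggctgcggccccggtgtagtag
Mycn: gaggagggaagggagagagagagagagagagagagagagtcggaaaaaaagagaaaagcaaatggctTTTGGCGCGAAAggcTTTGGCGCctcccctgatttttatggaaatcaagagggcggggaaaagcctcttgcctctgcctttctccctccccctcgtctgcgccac

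The CACGTG of Mxd4 began 219 bases before the RefSeq start, and that of Mnt 123 bases before it. In Mycn, TTTGGCGC occurred 183 and 168 bases before the start, and TTTCGCGC was read on the opposite strand at 179 bases, overlapping the first of these. TTTGGCGC was present before 0.88% of the tested genes and TTTCGCGC before 0.541%. The GC box GGGCGG was found in 8 of the 9 members and in 60.4% of the tested genes. The STAT motif TTCNNNGAA was found in 0 of the 9 and in 7.2% of the tested genes. These matches describe letters in a window and are not binding sites.

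The values are counts that the authors normalized so that all libraries have nearly the same distribution, and they are given below as normalized values. The distributions differed at the low end, where most Myc values lie: the genes at 0 ran from 1065 to 1707 between libraries. The median gene had a value of 409 in each of the 22 libraries, totals ran from 38403767 to 38419709, and these totals are not read depths. The study's methods give a nominal depth for its RNA-seq, but the reads of each library cannot be read from these values. The cells carried the ESC markers that were listed: all 10 were present, with Pou5f1 at 25663 to 39262, Nanog at 31970 to 123367 and Sox2 at 10935 to 18762. The summed ESC markers ran from 197028 to 296420. Since these are bulk libraries, a change in the RNA of each cell and a change in the share of cells that express a gene cannot be told apart.

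Per length, NC cells held mostly Mycn and very little Myc. The normalized value divided by the length in kb of the longest annotated transcript (GENCODE M21) was 1150 ± 238 (SD, n = 2) for Mycn. It was 1097 ± 88.8 for Max, the partner of the MYC proteins. Mga reached 826 ± 263 and Mnt, the most widely expressed repressor of the network, 624 ± 38.2. Below these lay Mxi1 at 264 ± 10.7, Mxd3 at 245 ± 17.0 and Mycl at 159 ± 11.1. Mxd1 at 42.3 ± 1.97, Mxd4 at 14.0 ± 4.58 and Myc at 4.92 ± 4.54 were the lowest 3. Mycn therefore made up 89.6% and 84.9% of the per-length total of the 3 MYC genes in the NC libraries, and Myc 0.116% and 0.703%. Over all 22 libraries the Mycn share stayed between 82.4% and 92.3%. The values were normalized to compare libraries and not genes, so these shares are approximate.

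**Figure D1:**
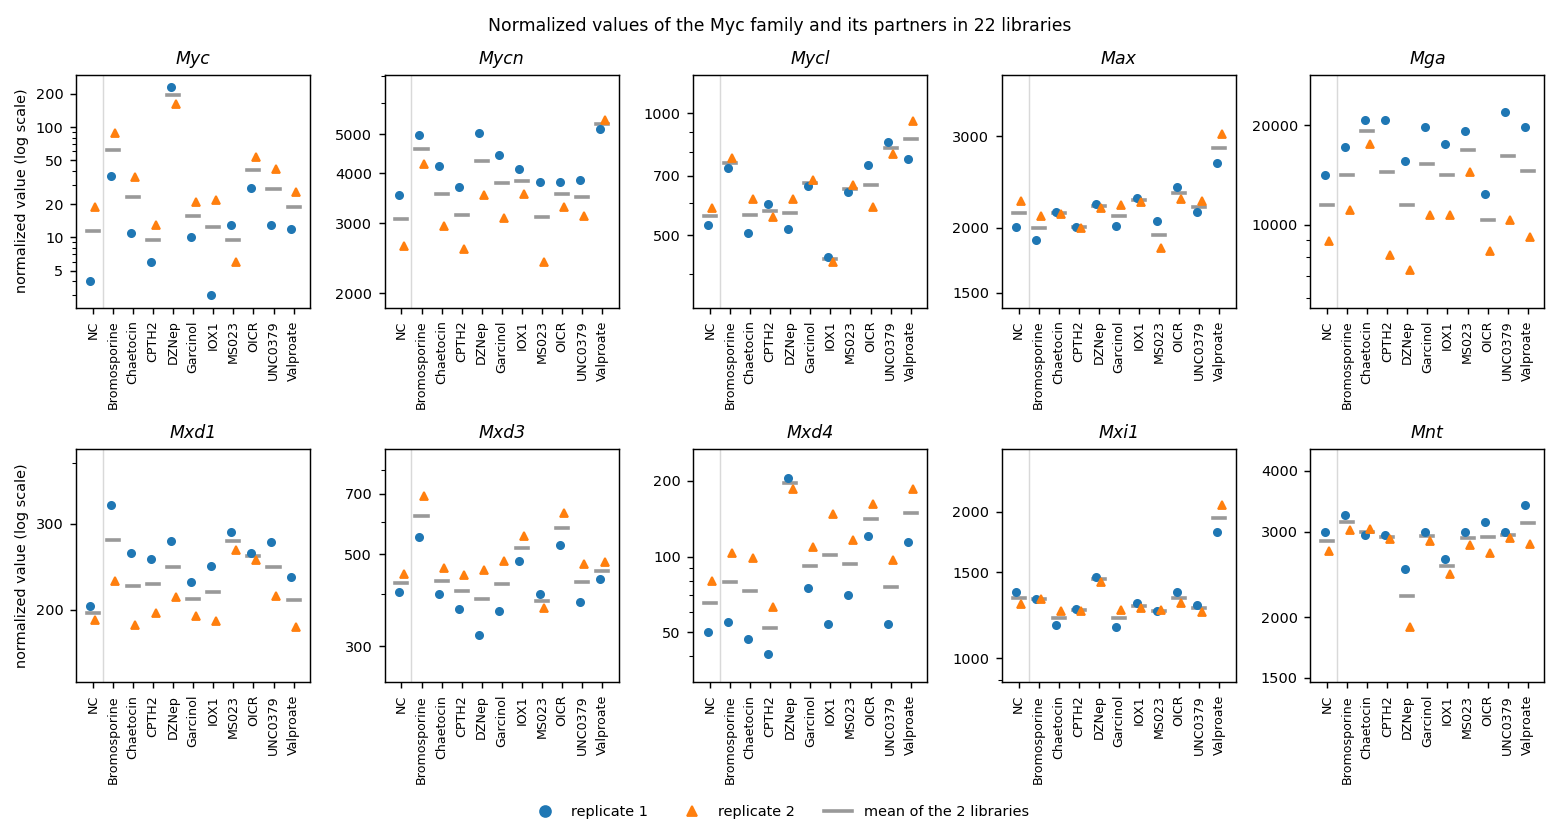
Normalized value (log axis, its range differing between panels) of each of the 10 genes in all 22 libraries, by group, with circles for replicate 1, triangles for replicate 2 and a bar at the mean. DZNep stands highest for Myc (230 and 161) and Mxd4 (206 and 185), and Valproate for Mycn (5162 and 5429), Mycl, Max and Mxi1.

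A difference was called at a Benjamini-Hochberg adjusted limma p under 0.05, over all genes tested, and a change of more than 2-fold. Of the 100 member and compound pairs, 2 were called: Myc and Mxd4 rose with DZNep, where 11.4% of the tested genes were called in either direction and 5.27% were called higher. A further 4 pairs passed the p threshold with a change under 2-fold: Mnt with DZNep, and Mycl, Max and Mxi1 with Valproate. In 13 of the 100 pairs the unadjusted p was under 0.05, as it was in 13.2% of all gene and compound pairs. With UNC0379 limma called 0 of the tested genes, of which 1051 had an unadjusted p under 0.05. The remaining compounds called between 0.00579% (CPTH2 and Garcinol) and 5.28% (Valproate) of the tested genes, with 0.0174% for Chaetocin, 0.116% for IOX1, 0.388% for OICR, 0.973% for MS023 and 3.34% for Bromosporine. This fit leaves out the replicate number. Outside DZNep it called 0 members, while 10 pairs had an unadjusted limma p under 0.05. With the replicate number as a block, limma also called Myc with Bromosporine (6.88% of all genes), and Mxd4 with OICR (1.59%) and Valproate (8.61%). In data simulated for the DZNep contrast, 73 of 100 genes with a log2 change of 2 were recovered and 83 of 100 with a log2 change of 3. The simulation changed far fewer genes than were called with DZNep and held no shift by replicate number. These rates therefore need not hold for the data.

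**Figure D2:**
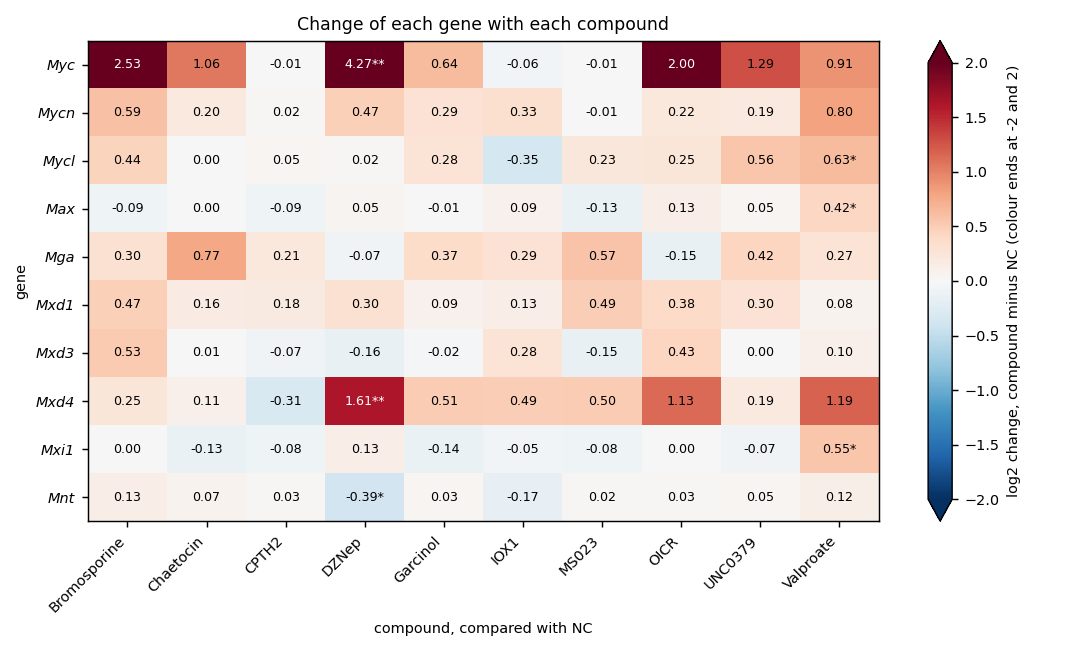
Log2 change of each gene (rows) with each compound (columns) against NC, with the colour scale ending at -2 and 2. A double asterisk marks the 2 called pairs, Myc and Mxd4 with DZNep, and a single asterisk the 4 pairs with a Benjamini-Hochberg adjusted limma p under 0.05 and a change below 2-fold.

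Myc (ENSMUSG00000022346, chr15:61985391-61990374 of mm10, plus strand) encodes the founding transcription factor of the family. Its normalized values were 4 and 19 in NC and 230 and 161 with DZNep. Both DZNep libraries lay above the other 20, whose highest value was 89, in Bromosporine replicate 2. The log2 change against NC was 4.27 (SE 0.95, Benjamini-Hochberg adjusted limma p 0.00542), and 5.53 and 3.02 between libraries of the same replicate number. Against the mean of the other 9 compounds it was 3.35 (Benjamini-Hochberg adjusted limma p 0.00272). The size depends on the low NC values: adding 10 instead of 1 before the logarithm gave 3.33, and without NC replicate 1 it was 3.27 with an adjusted p of 0.0772, above the threshold.

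With the remaining compounds Myc stayed below its DZNep values. Its values were 36 and 89 with Bromosporine, 28 and 54 with OICR, 13 and 42 with UNC0379, 11 and 35 with Chaetocin, and 12 and 26 with Valproate. They were 10 and 21 with Garcinol, 3 and 22 with IOX1, 6 and 13 with CPTH2, and 13 and 6 with MS023. Only the Bromosporine and OICR pairs, with DZNep, exceeded both NC libraries, and of neighbouring groups in the order of means only DZNep (195.5 ± 48.8, SD, n = 2) and Bromosporine (62.5 ± 37.5) did not overlap. The log2 change was 2.53 with Bromosporine (adjusted p 0.152) and 2.0 with OICR (SE 0.95, adjusted p 0.481), both from limma with Benjamini-Hochberg adjustment and not called. With the replicate number as a block, Myc was called with Bromosporine (Benjamini-Hochberg adjusted limma p 0.0235) and not with OICR (0.118).

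Even with DZNep, Myc remained a minor part of the MYC genes. Its per-length share of Myc, Mycn and Mycl together was 4.61% and 4.41% in the DZNep libraries and 0.0772% to 2.07% in the other 20, with a median of 0.487%. Per length, Mycn exceeded Myc 19.2-fold and 19.1-fold with DZNep, against 771-fold and 121-fold in NC. These are approximate ratios between genes, and those in NC rest on Myc values of only 4 and 19. Pvt1, the long noncoding RNA gene that neighbours Myc on chromosome 15, had values of 220 and 173 in NC and 429 and 332 with DZNep, a log2 change of 0.95 that was not called (adjusted p 0.0765, limma with Benjamini-Hochberg). Pvt1 is named for its position, and it overlaps 3 annotated genes on its own strand.

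Mycn (ENSMUSG00000037169, chr12:12936093-12941914, minus strand), the MYC paralog typical of early embryonic and neural cells, showed its highest values with Valproate. These were 5162 and 5429, against 3525 and 2625 in NC, and the groups did not overlap. The log2 change of 0.80 (SE 0.28) was not called at a Benjamini-Hochberg adjusted limma p of 0.0851. Mycn was 4991 and 4212 with Bromosporine and 5048 and 3524 with DZNep, where the second library lay just below NC replicate 1. The log2 changes were 0.59 with Bromosporine and 0.47 with DZNep (Benjamini-Hochberg adjusted limma p 0.264 and 0.233). The rest of the groups had means between 3102 with MS023 and 3824.5 with IOX1, and NC, at 3075 ± 636 (SD, n = 2), was the lowest of the 11 groups. In the order of means only Valproate and Bromosporine did not overlap as neighbours.

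Mycl (chr4:122995652-123002485, plus strand), the third MYC paralog and a weaker transforming protein, was also highest with Valproate. Its values there were 769 and 959, against 529 and 584 in NC. UNC0379 gave 850 and 792, and Bromosporine 733 and 775, so that all of these libraries lay above NC. The log2 change with Valproate was 0.63 (SE 0.15, Benjamini-Hochberg adjusted limma p 0.0152), below 2-fold, and the adjusted p ran from 0.0200 to 0.113 when 1 library was left out. With UNC0379 it was 0.56 with an unadjusted p of 0.00201 and an adjusted p of 0.448. IOX1 gave the lowest Mycl values, 442 and 430, both under NC, with a log2 change of -0.35 (adjusted p 0.345).

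Max (chr12:76937269-76962201, minus strand), the dimer partner of the MYC proteins, varied less than the MYC genes. It read 2008 and 2252 in NC and 2661 and 3035 with Valproate, and the Valproate libraries were the highest of all 22. On the log2 scale the Valproate libraries were higher by 0.42 (SE 0.097, Benjamini-Hochberg adjusted limma p 0.0147). Among the other 9 compounds the log2 change ran only from -0.13 with MS023 to 0.13 with OICR, the 2 OICR libraries (2391 and 2274) lying above NC. Without Valproate replicate 2 the difference was 0.32 (adjusted p 0.101).

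Mga (chr2:119897228-119969581, plus strand), the large MAX partner that also carries a T-box domain, differed between the replicates in the same direction in every group. Its values were 14099 and 8918 in NC. Replicate 1 ran from 12362 to 21938 and replicate 2 from 7286 to 17610, and replicate 2 was the lower in all 11 groups. The log2 changes ran from -0.15 with OICR to 0.77 with Chaetocin (20733 and 17610), and the lowest Benjamini-Hochberg adjusted limma p over the 10 compounds was 0.713. No neighbours in the order of its means were free of overlap.

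Mxd4 (ENSMUSG00000037235, chr5:34173883-34187720, minus strand) encodes a MAX-binding repressor linked to differentiation. It was 50 and 80 in NC and 206 and 185 with DZNep, and no other library exceeded 185, a value that Valproate replicate 2 equalled. The log2 change with DZNep was 1.61 (SE 0.53, Benjamini-Hochberg adjusted limma p 0.0421), with 2.02 and 1.20 between libraries of the same replicate number. The call was lost without any 1 of the 4 libraries, at adjusted p of 0.258 without NC replicate 1, 0.0575 without NC replicate 2, 0.137 without DZNep replicate 1 and 0.0938 without DZNep replicate 2. Mxd4 was 114 and 185 with Valproate and 121 and 162 with OICR, above both NC libraries in each case. The log2 changes there were 1.19 and 1.13, not called at Benjamini-Hochberg adjusted limma p of 0.19 and 0.474. Both were called with the replicate number as a block (Benjamini-Hochberg adjusted limma p 0.00811 and 0.0397). The exons of Mxd4 overlap Gm42846 on the opposite strand, and the sources used here do not say that counting used strand.

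Mnt (chr11:74830920-74845725, plus strand) encodes a MAX-binding repressor and was the 1 member with both DZNep libraries below both NC libraries. Its values were 2990 and 2742 in NC and 2515 and 1910 with DZNep, without overlap, and those of IOX1, 2630 and 2459, also lay below NC. The log2 change with DZNep was -0.39 (SE 0.13, Benjamini-Hochberg adjusted limma p 0.0415), below 2-fold. Without DZNep replicate 2 it was -0.19 (adjusted p 0.315), and rescaling each library by its median ratio to the others gave -0.34 (adjusted p 0.0979). In the other 18 libraries Mnt lay between 2717 and 3412.

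Mxi1 (chr19:53310518-53375810, plus strand), an MXD-type repressor also called Mxd2, had the smallest p of any pair. It read 1366 and 1290 in NC and 1821 and 2070 with Valproate, while the highest of the other 20 libraries was 1470. The log2 change was 0.55 (SE 0.086, Benjamini-Hochberg adjusted limma p 0.00151), below 2-fold, and it kept an adjusted p of at most 0.0175 when any 1 library was left out. Fitting only the Valproate and NC libraries gave an adjusted p of 0.19. With 5 compounds both Mxi1 libraries lay below NC, by at most 0.14 on the log2 scale (Garcinol). Mxi1 shared 3.98% of its 31-base words with other genes, the most of any member, and its exons overlap Gm10197 on the opposite strand.

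Mxd1 and Mxd3 are MXD repressors of differentiating and of proliferating cells respectively. In the fit that leaves out the replicate number, neither passed the p threshold with any of the 10 compounds. Mxd1 (chr6:86647042-86669161, minus strand) was 204 and 191 in NC and 289 and 265 with MS023, its highest log2 change at 0.49 (Benjamini-Hochberg adjusted limma p 0.371). It lay above both NC libraries with 5 compounds and below both with none. Mxd3 (chr13:55325168-55329823, minus strand) was 406 and 448 in NC, 550 and 691 with Bromosporine and 528 and 628 with OICR. The log2 changes were 0.53 with Bromosporine (adjusted p 0.163) and 0.43 with OICR. Exons of Mxd3 overlap Prelid1 on the opposite strand.

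By compound, members lay above NC more often than below it with Valproate, Bromosporine and OICR, mostly by less than a call requires. With Valproate all 10 log2 changes were above 0, from 0.08 for Mxd1 to 1.19 for Mxd4, with a median of 0.48 against -0.02 over all genes tested. Both Valproate libraries lay above both NC libraries for 5 members (23% of all genes tested did so) and below for 0 (27.6%). With Bromosporine and with OICR the counts were 6 above and 0 below, against 26.4% and 23% of all genes for Bromosporine and 21.4% and 18.7% for OICR. The medians of the members were 0.37 and 0.23. With DZNep 4 members lay above and 1 below, against 26.5% and 32.4% of all genes, and the median was 0.09. Since all these comparisons share the NC libraries, they are not separate evidence of direction. In the order of the 11 means NC ranked 11 for Mycn and Mxd1, 10 for Mycl and Mxd4, and 9 for Myc, Mga and Mnt. It ranked 7 for Max and Mxd3 and 4 for Mxi1. Against the mean of the other compounds, the log2 change with Valproate was below 0 for Myc (-0.39), Mga (-0.04) and Mxd1 (-0.20), and above 0 for the rest.

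The remaining compounds gave few separations. With MS023 3 members lay above and 2 below NC (21.8% and 23.6% of all genes), and with IOX1 2 and 2 (19.4% and 24.2%). UNC0379 gave 2 above and 1 below (17.2% and 17.6%), Garcinol 1 and 1 (16.2% and 17.4%) and Chaetocin 1 and 1 (14% and 20%). With CPTH2 0 members were above and 1 below (8.19% and 7.96%). The counts for these compounds were near the background.

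Several members differed between the replicate numbers in the same direction across groups. Replicate 2 was below replicate 1 in all 11 groups for Mga and Mxd1, with median log2 differences of -0.72 and -0.36, as was the case for 8.75% of the genes tested. It was below in 10 of 11 groups for Mycn (median -0.43) and Mnt (-0.10), and above in 10 of 11 for Mxd4 (0.69) and Mxd3 (0.25). These 6 members stand against 39.8% of all genes that went one way in at least 10 of 11 groups. Myc was higher in replicate 2 in 9 of 11 groups, with a median of 1.05, and DZNep and MS023 were the exceptions. Max, Mycl and Mxi1 showed no such lean.

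**Figure D3:**
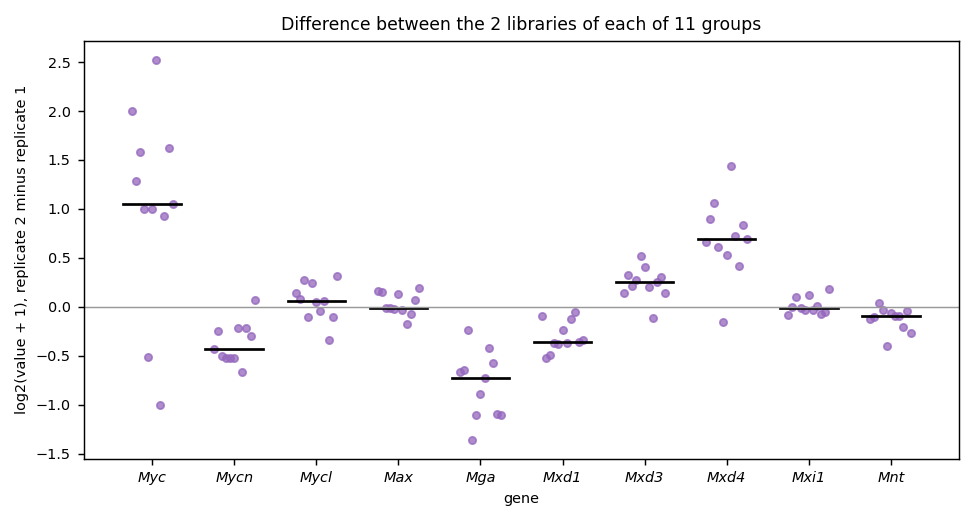
Difference between replicate 2 and replicate 1 on the log2(value + 1) scale for each gene, with 1 point for each of the 11 groups and a bar at the median. All points of Mga and Mxd1 lie below 0, whereas those of Max and Mxi1 scatter close to 0.

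Across the 22 libraries the members did not share 1 pattern. On the log2 scale the highest correlations among them were between Max and Mxi1 (Pearson r 0.794), and between Myc and Mxd4 (0.70). The Valproate libraries were the highest for Max and Mxi1, and DZNep had the highest mean for Myc and Mxd4. After each replicate number was centred, Max and Mxi1 stayed highest (0.796), followed by Mycn and Mxi1 (0.687) and then Myc and Mxd4 (0.645). Outside the family, the genes most like Myc were Med11 (0.931), Top3a (0.903) and Ythdf2 (0.898), out of 12583 compared. Those most like Mxd4 were Cactin (0.920), Ipo13 (0.913) and Mllt6 (0.890), and those most like Mycn were Prkab1 (0.871), Klf7 (0.865) and Hoxc12 (0.842). The libraries come in pairs that share a compound, so these values are a description.

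The wider network was described with 8 lists that hold 152 genes, all of them tested. With DZNep 9 of the 152 were called higher and 5 lower, 9.21% against 11.4% of all genes. With Bromosporine 3 were called, all lower, with Valproate 1 was called higher and 2 lower (1.97% in each case, against 3.34% and 5.28%), and with the other 7 compounds 0 were called by limma, while between 1 (CPTH2) and 28 (IOX1) had an unadjusted p under 0.05. Over the 8 lists together the shares were below those of all genes with these 3 compounds. The 3 calls with Bromosporine became 0 without NC replicate 1 and 1 without either NC replicate 2 or Bromosporine replicate 2, and those with Valproate became 1 without Valproate replicate 2.

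**Figure D4:**
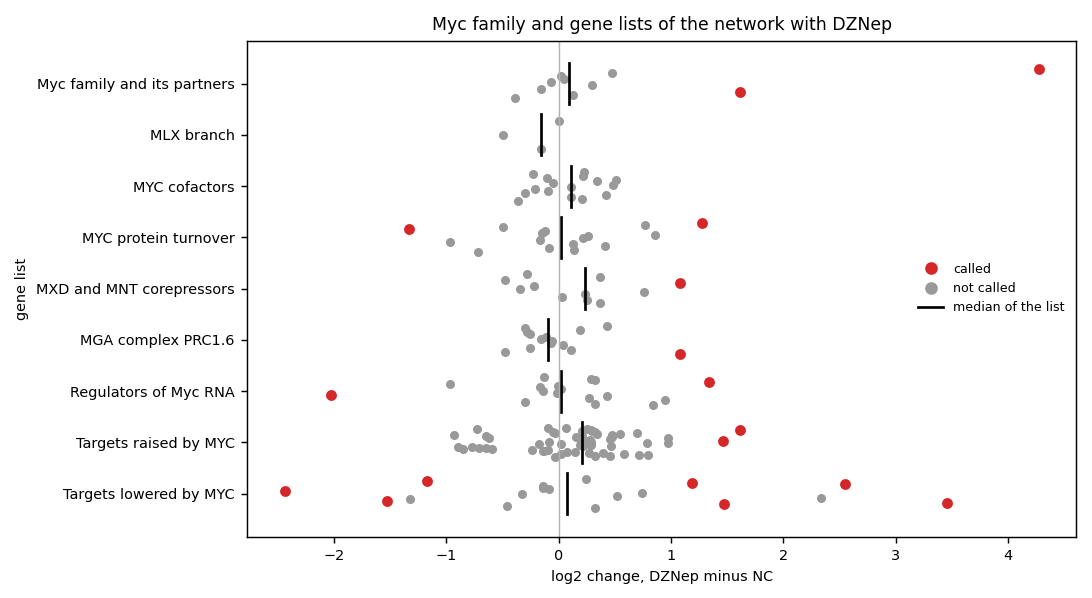
Log2 change with DZNep against NC of each gene of the Myc family and of 8 lists of the network, with called genes in red and a bar at the median of each list. Myc at 4.27 and Mxd4 at 1.61 are the called members, no MYC cofactor was called, and Hdac2 appears in 2 lists.

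Proteins that work with or on MYC showed single changes. Of 16 MYC cofactors, such as the TRRAP and TIP60 acetyltransferase subunits, 0 were called with DZNep and 6 had an unadjusted p under 0.05 by limma, which 35.4% of all genes had with DZNep. Of 16 genes for MYC protein turnover, Fbxw7, the ubiquitin ligase subunit that marks MYC proteins for degradation, rose from 1068 and 1365 to 3200 and 2665 (log2 change 1.27, Benjamini-Hochberg adjusted limma p 0.00352). Usp28, the deubiquitinase that opposes it, fell from 5075 and 3600 to 1825 and 1579 (-1.33, Benjamini-Hochberg adjusted limma p 0.0138). In both genes the DZNep and NC libraries did not overlap. Of 11 corepressors of the MXD proteins and MNT, and of 14 subunits of the MGA-containing PRC1.6 complex, Hdac2 alone was called, in both lists. Hdac2, a histone deacetylase, rose from 5685 and 5871 to 13597 and 10924 (1.08, Benjamini-Hochberg adjusted limma p 0.00216). Of the 3 genes of the MLX branch, which senses glucose and pairs with MXD proteins, Mlxipl fell with Bromosporine from 834 and 737 to 247 and 279 (-1.57, Benjamini-Hochberg adjusted limma p 0.0286), and 0 were called with DZNep.

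Of 17 regulators of Myc RNA, 1 was called higher and 1 lower with DZNep. Zfp36, which encodes the mRNA-destabilizing protein tristetraprolin, fell from 645 and 399 to 160 and 96 (log2 change -2.02, Benjamini-Hochberg adjusted limma p 0.0026). Lef1, a WNT effector, was the gene called higher, and it is named after its values were seen. With Valproate Lef1 rose from 29 and 42 to 350 and 194 (2.86, Benjamini-Hochberg adjusted limma p 0.00066). The 2 Valproate libraries differed from each other but lay far above NC.

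Of 60 listed genes that MYC is known to raise, 2 were called higher with DZNep, Tert and Ccnd2, and 0 lower, with 23 at an unadjusted p under 0.05. These were 3.33% called, against 11.4% of all genes, and the 23 stand against 35.4% of all genes at that p. The median log2 change was 0.21, against -0.04 over all genes. With DZNep the median was 0.23 for MXD and MNT corepressors, 0.11 for MYC cofactors and 0.08 for genes that MYC lowers. It was 0.02 for MYC protein turnover, 0.02 for regulators of Myc RNA, -0.09 for the MGA-containing complex and -0.16 for the MLX branch. A median above that of all genes was therefore not particular to the genes that MYC raises. Tert, the catalytic subunit of telomerase, rose from 440 and 454 to 1778 and 856 (1.46, Benjamini-Hochberg adjusted limma p 0.00571). Ccnd2, a D-type cyclin named after its values were seen, was low in both groups, at 14 and 11 in NC and 57 and 28 with DZNep. With Bromosporine Ccnd1 fell from 3394 and 4050 to 1177 and 1931 (-1.30, Benjamini-Hochberg adjusted limma p 0.0194), although 28.1% of its 31-base words occur in other genes. With Valproate Shmt2, a mitochondrial enzyme of serine and glycine metabolism, fell from 13304 and 12341 to 6460 and 5568 (-1.10, Benjamini-Hochberg adjusted limma p 0.000107).

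Of 18 genes that MYC is known to lower, 7 were called with DZNep in both directions, 4 higher and 3 lower, or 38.9% of the list against 11.4% of all genes. The list was chosen with earlier results of these data known, so this share is a description and not a test. Col1a1, a fibrillar collagen gene, rose from 24 and 24 to 327 and 228 (log2 change 3.45, Benjamini-Hochberg adjusted limma p 1.79e-05), and Cdkn1c, a CDK inhibitor, from 56 and 82 to 354 and 456 (2.55, Benjamini-Hochberg adjusted limma p 7.16e-05). Of the words of Cdkn1c, 28.4% occur in other genes. Cdkn2b and Timp3 were also called higher, and Cdkn1b, Ndrg2 and Cebpa lower, so that CDK inhibitors stood on both sides. Ndrg2 fell with Valproate too, from 395 and 355 to 143 and 146 (-1.37, Benjamini-Hochberg adjusted limma p 0.0236), and Col1a1 was the gene of this list called lower with Bromosporine. The names without values here fell outside the rule for named genes and were chosen after their values were seen.

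Markers of other cell types moved with DZNep beside Myc and Mxd4. Of 7 fibroblast or feeder markers, Col1a1 and Thy1 were called higher, and Lum and Dcn were listed at 0 in both groups. The 7 summed to 528 and 1368 in NC and to 1612 and 1874 with DZNep, mostly from Postn and Col3a1, which were not called. Over the 22 libraries this sum ran from 27 to 1874. It also differed widely within groups, as with Garcinol (50 and 1104) and MS023 (1067 and 105). The 4 trophoblast markers summed to 140 and 140 in NC and to 421 and 288 with DZNep, with Eomes and Gata3 called higher. The 5 primitive endoderm markers summed to 454 and 364 in NC and to 467 and 739 with DZNep, with 2 called higher and 1 lower. Of 4 neural markers 2, Sox1 and Nes, were called lower, and of the 3 tested mesoderm markers 0 were called. The neural markers nevertheless summed to 3292 and 4950 in NC and to 4286 and 5119 with DZNep. Among them Tubb3, not called, went from 947 and 2771 to 3331 and 4333. The mesoderm markers summed to 168 and 212 in NC and to 261 and 263 with DZNep. The summed ESC markers were 226221 and 229342 in NC and 296420 and 288581 with DZNep, and Zfp42 was called higher, from 16469 and 20763 to 49540 and 33822. The ESC markers did not all move one way. Nanog went from 44793 and 59405 to 92251 and 123367, and Dppa5a from 41903 and 39262 to 28606 and 30833. Tfcp2l1 went from 41969 and 33833 to 36715 and 16883, and these genes were not called.

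With Valproate the fibroblast or feeder markers summed to 1554 and 1422, with Thy1 (12 and 11 in NC, 358 and 303 with Valproate) and Lum (0 and 0 in NC, 197 and 331 with Valproate) called higher and 1 marker at 0 in both groups. Pdgfra was called higher and Sox1 lower. With Bromosporine the trophoblast markers summed to 340 and 309, with Eomes called higher (129 and 119 to 331 and 298) and Hand1 lower (9 and 4 to 0 and 0), and the fibroblast markers summed to 682 and 613 with Col1a1 called lower. With OICR 0 markers were called by limma. The part of other cell types in the values of the Myc family was not tested for any of these compounds.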

How the data were processed

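E14 mouse ESC poly(A) RNA-seq libraries (22, 2 for each of 11 groups named by the treatment label) were analysed from the table of normalized values. The submitters' processing notes name bcl2fastq, Bowtie2 2.2.5, RSEM and build mm10. Per the study's methods, which do not mention the compounds, gene counts were normalized with EDASeq (full quantile). The deposited values are whole numbers on a score scale that the authors normalized to nearly 1 shared distribution, so they are not raw counts, and raw counts were not used here. This normalization removes differences in depth and in total RNA, and a value near 0 may come from few reads. The second deposited table holds the authors' means of the same libraries (largest difference 0) and was not used further. No table column was left unmatched to a library.

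Values were transformed to log2(value + 1), and genes with at least 10 in at least 2 libraries were kept (17275 of 18487). All 22 libraries were fitted in 1 limma 3.58.1 model (R 4.3.3) with 11 group means and a mean-variance trend (lmFit, eBayes), leaving 11 residual degrees of freedom. Each compound was compared with NC, with Benjamini-Hochberg adjustment over all genes of a contrast. Calls needed an adjusted p under 0.05 and more than a 2-fold change. All p-values measure the spread between the 2 libraries of a group, which may be technical. The procedure was tested on simulated data with 17275 genes, where 5 false calls were made in the DZNep contrast.

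All members are named. Of each list and compound, at most 2 called genes are named, those with the largest absolute change whose libraries do not overlap NC and whose larger mean is at least 100. For each called member, and Mycn, the 3 most correlated genes with values above 0 throughout and a mean of at least 100 are given. The members and lists were chosen, from general knowledge, with earlier results of these data known. Coordinates, exon overlaps, lengths and 31-base words shared between genes are from GENCODE M21 (mm10), and promoters from RefSeq (GRCm38.p6). Alternatives were a pseudocount of 10, no filter, compound and NC libraries only, the replicate number as a block, median-ratio rescaling, the mean of the other compounds as the reference, adjustment over all contrasts, and leaving out each library.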

Additional observations from a re-analysis of the deposited data

How the results depend on the processing

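With DZNep, the compound with called members, the count of 2 held in 5 of 11 alternatives and was 0 or 1 in the other 6. For the other 9 compounds the count reported is 0, so an unmoved count says little. Of the 100 member and compound pairs, 95 were called under none of the settings tried. With only the compound and NC libraries in the fit, 0 members and 0 list genes were called with DZNep, and 0 list genes with Bromosporine and Valproate, because few degrees of freedom remain. The adjusted p was then 0.104 for Myc and 0.121 for Mxd4 with DZNep. Adjusting over all contrasts kept 1 of the 2 members with DZNep, Myc (adjusted p 0.026 against 0.153 for Mxd4). Leaving out 1 library gave 0 to 1 members with DZNep, with 0 without NC replicate 1. Leaving out 1 library gave 0 to 2 list genes with Bromosporine, 0 to 1 with MS023 and 1 to 4 with Valproate. Taking the mean of the other compounds as the reference gave 1 list gene of 152 with IOX1 (0.486% of all genes) and 2 with MS023 (2.74%).

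The replicate numbers of the titles were tried as a block. Between 2 groups the differences of replicate 2 from replicate 1 correlated across genes from 0.0535 to 0.298 (median 0.196, 55 group pairs, 51 over 0.1). All of these correlations were positive, though the labels name no shared batch. Each of the 22 libraries correlated best with a library of its own number, a hint from the data and not the design. With the replicate block, 2 members were called with DZNep (15.1% of all genes tested), 1 with Bromosporine (Myc, adjusted p 0.0235, with 6.88% of all genes), 1 with OICR (Mxd4, 0.0397, with 1.59%) and 1 with Valproate (Mxd4, 0.00811, with 8.61%). Some pairs under 2-fold passed the p threshold only with the block. They were Mycn with Valproate (Benjamini-Hochberg adjusted limma p 0.00149), Bromosporine (0.0129) and DZNep (0.0161), and Mycl with Bromosporine (0.0452). Mxd3 with Bromosporine (0.0117) and Mxd1 with Bromosporine (0.0256) and MS023 (0.0329) did so too. The block gave 15 list genes with DZNep, 6 with Bromosporine, 5 with Valproate, and 2 each (1.32% of 152) with IOX1, MS023 and OICR, against 1.26%, 2.8% and 1.59% of all genes.

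Of 1100 alternative values of the 100 pairs, 108 had the opposite sign, all in pairs that were not called, and the cause was not tested. The examples given here are of pairs that held a member's lowest or highest change. Myc with IOX1 (-0.06) was 0.018 with a pseudocount of 10 and -1.32 to 1.20 without 1 library. Mycn with MS023 (-0.01) was 0.0091 after median-ratio rescaling and -0.34 to 0.32 without 1 library. Mxd1 with Valproate (0.08) was -0.20 against the other compounds and -0.093 to 0.24 without 1 library. Without 1 library, Mga with OICR ran from -0.48 to 0.18, Mxd3 with DZNep from -0.42 to 0.11 and Mxd4 with CPTH2 from -0.64 to 0.024. Size factors for the rescaling lay between 0.971 and 1.04. Since the normalized values do not give the reads behind them, no counting error is given for Myc, a very low gene in most libraries.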
